A study of Homo sapiens with 9 samples.

Results

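The premalignant step of the MCF10A breast progression series was described by comparing MCF10AT1 with MCF10A across the transcriptome. The comparison took the 3 MCF10A and the 3 MCF10AT1 libraries, 6 of the 9 libraries of the series, and the 16940 of 62666 annotated genes that had 10 or more counts in at least 3 of those 6 libraries. MCF10A is an immortalised, non-tumorigenic human mammary epithelial line, and MCF10AT1 is its derivative that carries an activated HRAS oncogene and forms premalignant lesions in mice. Both lines grew in DMEM/F12 medium that held insulin at 10 µg/mL, epidermal growth factor (EGF, human) at 20 ng/mL, cholera toxin at 100 ng/mL, hydrocortisone at 500 ng/mL, L-glutamine at 2 mM and NaHCO3 at 14 mM. Horse serum was 5% for MCF10A and 2.5% for MCF10AT1, so that a difference of line and a difference of serum cannot be told apart in any value below. Polyadenylated RNA was extracted with RNeasy columns and made into stranded Illumina mRNA libraries. The labels number the replicates 1 to 3 and do not say whether they were separate cultures, so p-values measure the spread between these libraries, which may be technical. A single parental line and a single derivative were compared, and the libraries measure whole cultures, in which fewer cells of a type and less RNA per cell cannot be told apart.

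RAS proteins are small GTPases that pass growth factor signals from receptors such as EGFR to the RAF, MEK and ERK kinases. Active ERK raises the transcription of immediate early factors, of the phosphatases that switch ERK off again, and of further EGFR ligands. Mammary epithelium is built of luminal cells, which express keratins 8 and 18, and basal cells, which express keratins 5 and 14 and contractile genes; cultured MCF10A cells carry features of both.

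The 6 libraries held between 62.9 and 69.5 M estimated counts. The first principal component held 92.1% of the variance and separated the lines, and the second held 3.63% and set MCF10A replicate 1 apart from replicate 3. Defining epithelial genes were expressed in every library, among them EPCAM, an epithelial adhesion molecule, CDH1, which encodes E-cadherin, and KRT5. Summed over 12 leukocyte markers the level was 29.2 to 36.8 CPM (counts per M counts of the library) in MCF10A and 10.3 to 11.2 CPM in MCF10AT1, carried by CD68, CD14 and CSF1R, while PTPRC had fewer than 10 counts everywhere and CD3E and TYROBP were at 0. The sum over 11 fibroblast markers was 107 to 111 CPM in MCF10A and 92.1 to 95.1 CPM in MCF10AT1, with COL1A2, COL3A1, LUM and THY1 under 10 counts in every library. Endothelial markers summed to 6.60 to 7.18 CPM in MCF10A and 6.58 to 7.78 CPM in MCF10AT1, and EMCN, CLDN5 and ERG were at 0. The 10 adipocyte and neural markers summed to 0.547 to 0.638 CPM in MCF10A and 0.868 to 1.17 CPM in MCF10AT1.

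Of the 16940 genes, 61.7% differed between the lines at an adjusted p under 0.05. MCF10AT1 was higher for 31% and lower for 30.7%, and the median log2 change over all genes was 0.0080. At least 2-fold changes were rarer: 9.07% of genes were higher and 8.51% lower. The values of the lines did not overlap for 67.4% of genes. Each gene family below is read against these shares. All log2 changes are MCF10AT1 minus MCF10A, with the standard error after the ± sign, and CPM values are listed in the order of replicates 1, 2 and 3. The plot of gene list medians shows the members of 20 families.

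The deposited TPM, transcript levels scaled by length and library total, carry no TMM scaling, and on the log2(TPM + 1) scale the median log2 change of all genes was -0.09, with 3391 genes higher and 5863 lower by limma. Counts of rises were smaller on that scale by more than 1.5 times for several lists, among them WNT (9 in place of 16), semaphorin (7 for 13), Ephrin (4 for 7), basal (3 for 6), interferon-stimulated (4 for 7), complement (0 for 3), ATF4 (8 for 15), heat shock (2 for 6), glycolysis (5 for 9), homologous recombination (1 for 4), Polycomb (3 for 7), ZNF (109 for 167), proteasome (8 for 13), DNA replication (2 for 4), H3K9 and DNA methylation (1 for 3), SWI/SNF (1 for 3), mitosis (0 for 1), cohesin (0 for 1), cytosolic ribosomal (17 for 30) and mitochondrial ribosomal genes (32 for 52). Several list medians were also nearer 0 on that scale by more than 1.5 times for the RAS pathway (-0.01 in place of 0.10), AP-1 (0.48 for 0.86), ERK output (0.38 for 0.60), keratin (0.25 for 0.62), luminal (0.37 for 0.99), kallikrein (1.23 for 3.03), HLA class II (0.39 for 1.71), cholesterol (0.33 for 0.50), mitochondrial ribosomal (0.11 for 0.28), cytosolic ribosomal (0.08 for 0.24) and respiratory chain genes (0.10 for 0.26). KRT5, ITGA6, ESCO1, PTTG1, SAMD9 and CD55, described below, did not pass limma's test on that scale. Without a filter on low values, further lists had fewer rises on log2(TPM + 1). Among them were ERK output (11 in place of 17), cholesterol (13 for 22), RAS pathway (6 for 12) and respiratory chain genes (25 for 45).

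**Figure D1:**
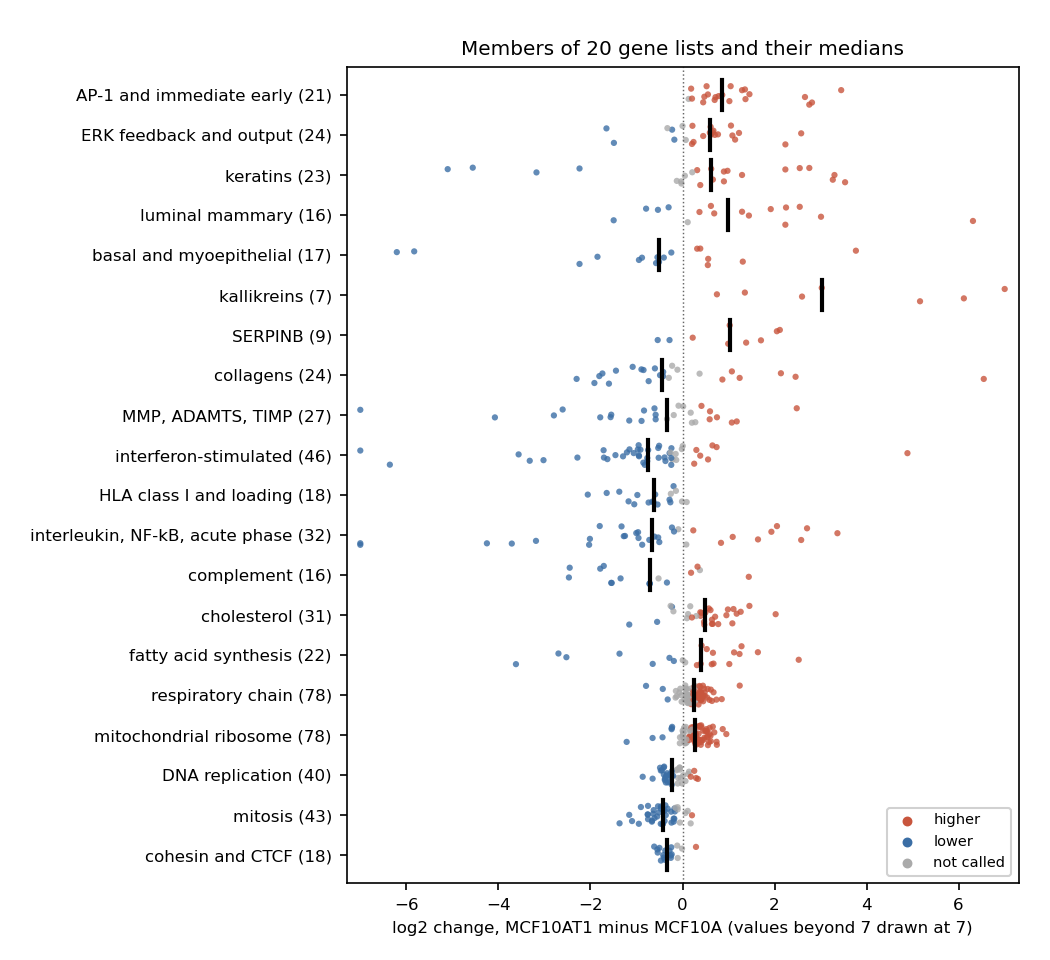
Log2 change (MCF10AT1 minus MCF10A, horizontal axis) of the members of 20 gene lists, each point being 1 gene, red where it rose, blue where it fell and grey where it did not pass the test. The vertical mark is the median, the number in parentheses counts the genes measured, and changes beyond 7 are drawn at 7. Kallikreins had the highest median shown, at 3.03, and interferon-stimulated genes lay among the lowest, at -0.76.

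HRAS, the oncogene that distinguishes the derivative, was at 41.8, 40.2 and 38.9 CPM in MCF10A and 99.1, 99.7 and 94.5 CPM in MCF10AT1 (log2 change 1.28 ± 0.06, adjusted p = 1.3e-08). All 3 MCF10AT1 libraries lay above all MCF10A libraries. Gene counts do not separate the introduced copy from the endogenous one. The related gene NRAS moved little (log2 change -0.19 ± 0.07, adjusted p = 0.039), with every MCF10AT1 value below every MCF10A value, and had an adjusted p between 0.078 and 0.11 when MCF10A replicate 2 or 3 or any of the MCF10AT1 replicates was left out.

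Of 26 RAS pathway genes measured, 12 rose and 4 fell, with a median log2 change of 0.10. Falls in this list numbered 2 without MCF10A replicate 2 or MCF10AT1 replicate 1 or 2. RASAL1, a GTPase-activating protein that switches RAS off, was at 0.167, 0.152 and 0.143 CPM in MCF10A and 9.70, 9.80 and 9.26 CPM in MCF10AT1 (log2 change 5.95 ± 0.13, adjusted p = 8.3e-11), and MCF10A held 10 to 11 counts a library. DAB2IP, another RAS GTPase-activating protein, was at 73.1, 62.4 and 60.1 CPM in MCF10A and 113, 111 and 118 CPM in MCF10AT1 (log2 change 0.81 ± 0.08, adjusted p = 5.1e-06). DAB2IP lies on chromosome 9, where most genes were higher, as given below. KSR1, a scaffold that holds RAF, MEK and ERK together, rose by 1.30 ± 0.11. The kinase gene ARAF fell by 0.47 ± 0.06. NF1, the best-known RAS GTPase-activating protein, was at 75.4, 75.0 and 72.1 CPM in MCF10A and 65.2, 61.4 and 73.7 CPM in MCF10AT1, with overlapping values (log2 change -0.15 ± 0.07, adjusted p = 0.082), and had a log2 change of -0.23 with an adjusted p of 0.011 without MCF10AT1 replicate 3.

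ERK feedback and output genes stood higher as a group: 17 of 24 rose, 4 fell and the median was 0.60. The ERK phosphatase gene DUSP6 was at 140.4, 136 and 136 CPM in MCF10A and 287, 286 and 282 CPM in MCF10AT1 (log2 change 1.05 ± 0.06, adjusted p = 6.2e-08). DUSP4, a nuclear phosphatase of the same family, was at 162, 146 and 142 CPM in MCF10A and 333, 329 and 331 CPM in MCF10AT1 (log2 change 1.14 ± 0.07, adjusted p = 1.4e-07). In both cases the MCF10AT1 values were far above the parental ones and tightly grouped. PHLDA1, a pleckstrin-homology protein induced by growth factors, rose by 1.23 ± 0.06, and CCND1, the cyclin that drives entry into the cell cycle, by 0.62 ± 0.07. LIF, a cytokine of the interleukin 6 family, was at 5.13, 5.15 and 5.40 CPM in MCF10A and 31.8, 29.2 and 32.7 CPM in MCF10AT1 (log2 change 2.58 ± 0.07, adjusted p = 3.1e-10). Not every output gene followed. The ETS factor gene ETV1 was at 21.0, 19.7 and 17.4 CPM in MCF10A and 6.59, 7.13 and 6.98 CPM in MCF10AT1 (log2 change -1.49 ± 0.08, adjusted p = 7.6e-08), and its relative ETV5 fell by 0.23 ± 0.06. SPHK1, which encodes a sphingosine kinase, was at 27.5, 25.9 and 27.2 CPM in MCF10A and 8.33, 8.72 and 8.63 CPM in MCF10AT1 (log2 change -1.65 ± 0.06, adjusted p = 2.5e-09). SPRY4, a feedback inhibitor of receptor signalling, fell by 0.18 ± 0.05 and had a log2 change of -0.16 with an adjusted p of 0.071 without MCF10AT1 replicate 1.

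Among EGFR family genes, ligands carried most of the rises, with 7 of 15 higher and 3 lower. AREG, which encodes amphiregulin, was at 846, 907 and 941 CPM in MCF10A and 1872, 1963 and 1869.8 CPM in MCF10AT1 (log2 change 1.08 ± 0.07, adjusted p = 4.2e-07). EREG (epiregulin) was at 37.2, 36.9 and 38.1 CPM in MCF10A and 61.3, 63.1 and 61.8 CPM in MCF10AT1 and HBEGF rose by 0.88 ± 0.06. NRG1, the neuregulin that binds ERBB3, was at 3.77, 3.49 and 3.42 CPM in MCF10A and 11.3, 11.2 and 12.7 CPM in MCF10AT1 (log2 change 1.72 ± 0.09, adjusted p = 3.6e-08), and ERBB3 itself rose by 0.83 ± 0.08. TGFA and BTC, also EGFR ligands, fell by 0.19 and 0.34. EGFR was at 406, 359.9 and 336 CPM in MCF10A and 305, 294 and 332 CPM in MCF10AT1; its decrease of 0.24 ± 0.08 passed the test (adjusted p = 0.025) but not when MCF10A replicate 2, MCF10AT1 replicate 1 or MCF10AT1 replicate 2 was left out (adjusted p = 0.059, 0.087 and 0.11). ERBB2 overlapped between the lines, with log2 change 0.01 ± 0.10, adjusted p = 0.95, and had a log2 change of 0.15 with an adjusted p of 0.021 without MCF10A replicate 1. ERRFI1, a cytoplasmic inhibitor of EGFR, was at 67.1, 67.3 and 69.4 CPM in MCF10A and 252, 252 and 252 CPM in MCF10AT1 (log2 change 1.89 ± 0.06, adjusted p = 7.3e-10), a rise shared evenly by the 3 libraries.

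AP-1 and immediate early genes moved together. Of 21 measured genes 20 rose and 0 fell, 10 of them at least 2-fold, with a median of 0.86. FOS was at 159, 155 and 155 CPM in MCF10A and 287, 282 and 285 CPM in MCF10AT1 (log2 change 0.86 ± 0.06, adjusted p = 2.7e-07), and EGR1, a zinc finger factor induced within minutes of growth factor addition, at 116, 104 and 110.0 CPM in MCF10A and 302, 294 and 306 CPM in MCF10AT1 (log2 change 1.45 ± 0.06, adjusted p = 1.4e-08). Other members changed more. EGR3 was at 0.439, 0.441 and 0.627 CPM in MCF10A and 5.25, 5.14 and 6.19 CPM in MCF10AT1 (log2 change 3.45 ± 0.16, adjusted p = 2.0e-08), the orphan nuclear receptor gene NR4A1 at 1.32, 1.51 and 1.74 CPM in MCF10A and 10.9, 9.29 and 12 CPM in MCF10AT1 (log2 change 2.81 ± 0.13, adjusted p = 2.1e-08), and ATF3 at 2.26, 2.27 and 2.71 CPM in MCF10A and 15.6, 14.9 and 15.3 CPM in MCF10AT1 (log2 change 2.66 ± 0.09, adjusted p = 1.7e-09). FOSL1 rose by 0.45 ± 0.06. JUN, the common partner of the FOS proteins, was at 55.6, 47.8 and 48.1 CPM in MCF10A and 52.6, 57.3 and 56.1 CPM in MCF10AT1 with overlapping values (log2 change 0.13 ± 0.07, adjusted p = 0.12), and had a log2 change of 0.21 with an adjusted p of 0.0028 without MCF10A replicate 1.

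**Figure D2:**
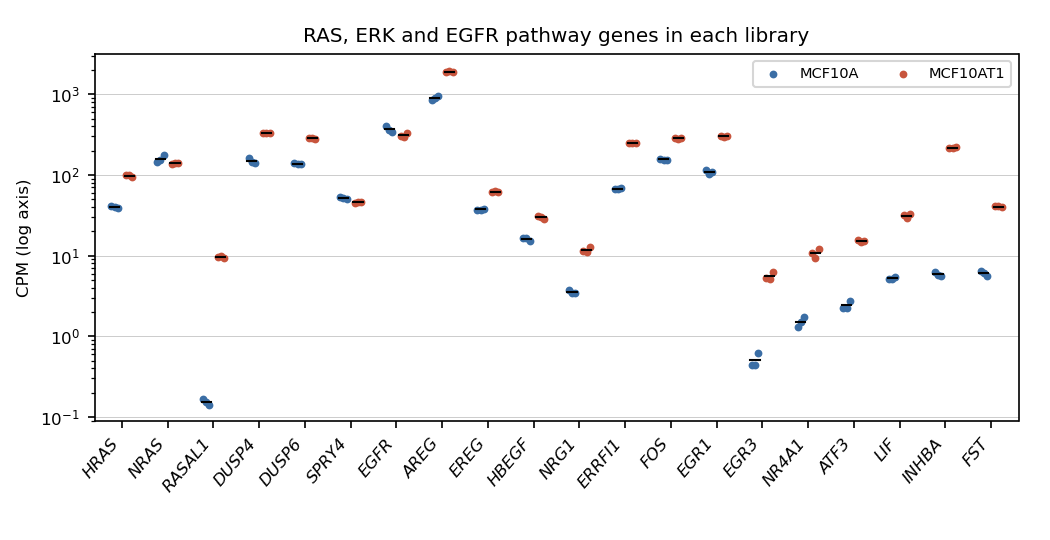
CPM in each library (points, logarithmic axis) of RAS, ERK and EGFR pathway genes, MCF10A in blue and MCF10AT1 in red, with the mean of each line as a bar. The MCF10AT1 points lay above the MCF10A points for most genes shown, and below them for EGFR, NRAS and SPRY4.

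Serum response factor targets, many of which build the contractile cytoskeleton, were divided: 11 of 23 fell and 6 rose. TAGLN, which encodes the actin-binding protein transgelin, was at 82.7, 88.0 and 88.0 CPM in MCF10A and 1.47, 1.54 and 1.53 CPM in MCF10AT1 (log2 change -5.83 ± 0.07, adjusted p = 4.0e-12). MYL9, a regulatory myosin light chain, was at 16.7, 14.7 and 14.9 CPM in MCF10A and 0.660, 0.755 and 0.533 CPM in MCF10AT1 (log2 change -4.56 ± 0.12, adjusted p = 3.1e-10), and FHL1, a LIM-domain protein, at 20.7, 18.3 and 19.3 CPM in MCF10A and 0.916, 0.755 and 0.953 CPM in MCF10AT1 (log2 change -4.47 ± 0.10, adjusted p = 1.3e-10). For all 3 genes every MCF10AT1 value was below every MCF10A value by more than an order of magnitude. ACTA2, smooth muscle actin, fell by 0.88 ± 0.10 and SRF itself by 0.26 ± 0.07, while SMTN, smoothelin, rose by 0.41 ± 0.07. The tropomyosin genes divided, TPM1 falling by 0.40 ± 0.05 and TPM2 rising by 0.39 ± 0.06. Targets of YAP and TEAD divided as well, with 9 of 21 higher and 8 lower. CCN2, connective tissue growth factor, was at 25.5, 23.5 and 24.2 CPM in MCF10A and 62.7, 64.6 and 63.3 CPM in MCF10AT1 (log2 change 1.38 ± 0.05, adjusted p = 5.8e-09), and AXL, a receptor tyrosine kinase, at 64.5, 55.8 and 49.8 CPM in MCF10A and 170.0, 167 and 159.9 CPM in MCF10AT1 (log2 change 1.55 ± 0.09, adjusted p = 9.4e-08). AXL lies in a segment of chromosome 19 where most genes were higher, as given below. NUAK2, a kinase gene on the long arm of chromosome 1, was at 14.5, 12.8 and 13.0 CPM in MCF10A and 1.61, 1.33 and 1.39 CPM in MCF10AT1 (log2 change -3.22 ± 0.10, adjusted p = 1.2e-09).

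FGF receptor genes moved in both directions. FGFR3 had 538, 495 and 509 counts in MCF10A and 0, 0 and 1 counts in MCF10AT1. FGFR2 was at 6.87, 6.47 and 6.63 CPM in MCF10A and 2.33, 2.02 and 2.20 CPM in MCF10AT1 (log2 change -1.61 ± 0.10, adjusted p = 1.4e-07). In the opposite direction, FGFR4 was at 1.56, 1.61 and 1.43 CPM in MCF10A and 5.97, 6.36 and 6.62 CPM in MCF10AT1 (log2 change 2.04 ± 0.10, adjusted p = 3.9e-08), and FGFR1 rose by 0.81 ± 0.10. The ligand gene FGF5 had 150, 152 and 181 counts in MCF10A and 4, 4 and 3 counts in MCF10AT1, and FGFBP1, a carrier that releases FGFs from the matrix, rose by 0.93 ± 0.06. In the FGF list 9 of 13 rose and 3 fell, and 5 rose when 50 counts were required.

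Of the TGF-beta list 10 of 22 genes rose and 7 fell, and 6 rose without MCF10A replicate 2. INHBA, which encodes the subunit of activin A, was at 6.24, 5.75 and 5.57 CPM in MCF10A and 215, 214 and 219.6 CPM in MCF10AT1 (log2 change 5.21 ± 0.07, adjusted p = 7.0e-12), with no overlap and more than an order of magnitude between the lines. FST, which encodes the activin-binding inhibitor follistatin, was at 6.45, 6.09 and 5.56 CPM in MCF10A and 41.2, 40.9 and 39.7 CPM in MCF10AT1 (log2 change 2.75 ± 0.07, adjusted p = 1.6e-10). The TGF-beta ligands divided: TGFB1 fell by 0.65 ± 0.06 and TGFB2 rose by 0.94 ± 0.08. TGFBR3, the co-receptor betaglycan, was at 15.7, 13.7 and 13.4 CPM in MCF10A and 3.68, 3.25 and 3.65 CPM in MCF10AT1 (log2 change -2.02 ± 0.09, adjusted p = 2.0e-08), whereas the signalling receptor gene TGFBR2 overlapped (log2 change 0.07 ± 0.07, adjusted p = 0.42, and a log2 change of 0.13 with an adjusted p of 0.041 without MCF10A replicate 1). TGFBI, a matrix protein named for its induction by TGF-beta, was at 3735, 3298 and 2941 CPM in MCF10A and 1061, 1053 and 961 CPM in MCF10AT1 (log2 change -1.70 ± 0.10, adjusted p = 1.2e-07). LTBP1, which tethers latent TGF-beta to the matrix, fell by 0.77 ± 0.10.

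In the bone morphogenetic protein (BMP) list 10 of 16 genes fell and 4 rose, with a median of -0.34. The ligand genes BMP2 and BMP4 rose by 1.57 ± 0.11 and 1.65 ± 0.18. The extracellular BMP inhibitor gene NOG was at 0.636, 0.731 and 0.570 CPM in MCF10A and 5.00, 5.14 and 5.44 CPM in MCF10AT1 (log2 change 3.01 ± 0.13, adjusted p = 1.1e-08). ID1, ID2 and ID3, direct BMP targets that block basic helix-loop-helix factors, fell: ID3 was at 72.7, 73.0 and 75.8 CPM in MCF10A and 18.1, 18 and 17.4 CPM in MCF10AT1 (log2 change -2.05 ± 0.05, adjusted p = 2.8e-10), ID2 fell by 2.21 ± 0.15 and ID1 by 0.36 ± 0.06. SMAD9, a BMP-responsive SMAD, fell by 1.74 ± 0.11.

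WNT pathway genes rose in 16 and fell in 7 of 39 cases, and fell in 11 without MCF10A replicate 3. WNT7B was at 0.772, 0.609 and 0.741 CPM in MCF10A and 8.63, 8.84 and 9.82 CPM in MCF10AT1 (log2 change 3.68 ± 0.12, adjusted p = 1.4e-09) and TCF7, a transcription factor of the pathway, at 1.97, 1.93 and 1.80 CPM in MCF10A and 13.7, 12.8 and 14.0 CPM in MCF10AT1 (log2 change 2.83 ± 0.08, adjusted p = 8.3e-10). WNT9A and the receptor gene FZD7 rose by 1.48 ± 0.10 and 1.90 ± 0.12, and the secreted inhibitor gene DKK1 by 1.17 ± 0.06. FZD6 fell by 0.99 ± 0.07, KREMEN1, a DKK receptor, by 1.07 ± 0.08, and LEF1 by 0.85 ± 0.14. AXIN2, a common readout of beta-catenin activity, stayed at 4 to 11 counts in all 6 libraries and its values overlapped. In the Notch list 9 of 22 rose and 6 fell. NOTCH1, NOTCH3 and the ligand gene JAG1 rose by 0.78 ± 0.08, 2.12 ± 0.16 and 0.94 ± 0.07. Of these, NOTCH1 lies on chromosome 9, where most genes were higher, as given below. Of the target genes, HES1 rose by 0.40 and NRARP by 1.41, while HEY1 fell by 1.74 and HES2 by 0.54. HES2 did not pass the test on the scaled or length-scaled counts.

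Guidance and cytoskeletal families were mixed. Semaphorin, plexin and neuropilin genes rose in 13 and fell in 9 of 27 cases, with SEMA3B at 1.94, 2.15 and 1.78 CPM in MCF10A and 14.4, 15.0 and 17.3 CPM in MCF10AT1 (log2 change 2.99 ± 0.10, adjusted p = 2.4e-09) and SEMA4F lower by -1.28 ± 0.08 on the log2 scale. SEMA3D, a secreted semaphorin, had no counts in any MCF10A library and 116, 96 and 110 counts in MCF10AT1. Among ephrins and their receptors, 7 of 14 rose, among them EPHA4 (2.24 ± 0.17), and 4 fell, among them EFNB3 (-1.94 ± 0.17). RHOB, an endosomal small GTPase induced by growth factors and stress, was at 9.18, 8.30 and 8.97 CPM in MCF10A and 65.0, 70.2 and 62.0 CPM in MCF10AT1 (log2 change 2.90 ± 0.07, adjusted p = 1.6e-10), and RHOF, which drives filopodia, at 14.2, 14.8 and 14.4 CPM in MCF10A and 70.8, 70.5 and 70.7 CPM in MCF10AT1 (log2 change 2.29 ± 0.05, adjusted p = 1.1e-10). RHOU fell by 2.79 ± 0.20.

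The keratin genes, which encode the intermediate filaments of epithelia, rose in 14 and fell in 4 of 23 measured members (median 0.62). The luminal keratin genes KRT8 and KRT18 were higher in every MCF10AT1 library, KRT8 at 195, 176 and 171 CPM in MCF10A and 885, 881 and 783 CPM in MCF10AT1 (log2 change 2.23 ± 0.08, adjusted p = 3.8e-09) and KRT18 at 370.3, 334 and 319 CPM in MCF10A and 856, 853 and 801 CPM in MCF10AT1 (log2 change 1.29 ± 0.08, adjusted p = 1.3e-07). KRT15 was at 48.1, 48.9 and 47.5 CPM in MCF10A and 334, 335 and 306 CPM in MCF10AT1 (log2 change 2.76 ± 0.06, adjusted p = 1.4e-10) and KRT6B, an activation-associated keratin, at 26.4, 23.6 and 20.7 CPM in MCF10A and 238, 232 and 209.6 CPM in MCF10AT1 (log2 change 3.27 ± 0.09, adjusted p = 6.7e-10). The basal pair separated: KRT5 rose by 0.39 ± 0.09 but did not pass the test on the log2(TPM + 1) scale, and its usual partner KRT14 was at 336, 306 and 288 CPM in MCF10A and 66.3, 68.0 and 63.1 CPM in MCF10AT1 (log2 change -2.24 ± 0.07, adjusted p = 1.6e-09). KRT19, a luminal keratin, was low throughout, with 2, 6 and 3 counts in MCF10A and 20, 29 and 15 counts in MCF10AT1.

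Luminal and secretory genes rose in 11 and fell in 4 of 16 (median 0.99), and basal and myoepithelial genes rose in 6 and fell in 11 of 17 (median -0.51). EPCAM was at 30.1, 30.1 and 29.2 CPM in MCF10A and 147, 147 and 131 CPM in MCF10AT1 (log2 change 2.25 ± 0.06, adjusted p = 5.4e-10). FOXA1, a pioneer factor of luminal cells, was at 6.33, 6.79 and 6.36 CPM in MCF10A and 17.2, 17.4 and 18.4 CPM in MCF10AT1 (log2 change 1.44 ± 0.07, adjusted p = 2.0e-08), while GATA3, another luminal factor, overlapped between the lines (log2 change 0.11 ± 0.08, adjusted p = 0.26, and a log2 change of 0.21 with an adjusted p of 0.011 without MCF10A replicate 1). AGR2, a secretory-pathway disulphide isomerase, was at 0.318, 0.35 and 0.371 CPM in MCF10A and 2.72, 2.60 and 3.10 CPM in MCF10AT1 (log2 change 3.01 ± 0.16, adjusted p = 5.9e-08). WFDC2, a secreted protease inhibitor, had 4, 3 and 3 counts in MCF10A and 291, 256 and 248 counts in MCF10AT1. CD24, a luminal surface glycoprotein, went against its list and fell by 0.79 ± 0.06. On the basal side, SPARC, a matricellular protein, was at 61.2, 57.0 and 54.2 CPM in MCF10A and 0.765, 0.649 and 0.921 CPM in MCF10AT1 (log2 change -6.21 ± 0.10, adjusted p = 1.6e-11), and MME, the surface peptidase CD10, at 14.2, 14.2 and 14.1 CPM in MCF10A and 4.19, 3.99 and 3.63 CPM in MCF10AT1 (log2 change -1.85 ± 0.08, adjusted p = 9.4e-09). TP63, the master factor of basal cells, fell by 0.51 ± 0.06 and VIM, vimentin, by 0.95 ± 0.08. NGFR, the low-affinity neurotrophin receptor, was a basal gene that rose, at 0.409, 0.259 and 0.356 CPM in MCF10A and 4.58, 4.88 and 4.57 CPM in MCF10AT1 (log2 change 3.77 ± 0.16, adjusted p = 9.3e-09).

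Regulators of epithelial differentiation moved in both directions. GRHL3, a grainyhead factor of surface epithelium, was at 4.07, 3.93 and 4.38 CPM in MCF10A and 0.240, 0.347 and 0.210 CPM in MCF10AT1 (log2 change -3.94 ± 0.17, adjusted p = 1.5e-08), and its paralogue GRHL2 had no counts in any MCF10A library and 1810, 1792 and 1711 counts in MCF10AT1. ELF3, an epithelium-specific ETS factor, was at 0.954, 1.10 and 1.07 CPM in MCF10A and 10.6, 9.12 and 9.32 CPM in MCF10AT1 (log2 change 3.22 ± 0.11, adjusted p = 2.1e-09). OVOL2 and ESRP1, which restrain mesenchymal genes and direct epithelial splicing, rose by 1.38 ± 0.09 and 0.64 ± 0.06. ZEB1, an epithelial-mesenchymal transition factor, fell by 0.63 ± 0.08, SNAI1 and TWIST1 rose by 1.27 ± 0.19 and 0.51 ± 0.06, and SNAI2 overlapped (log2 change -0.01 ± 0.05, adjusted p = 0.94).

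**Figure D3:**
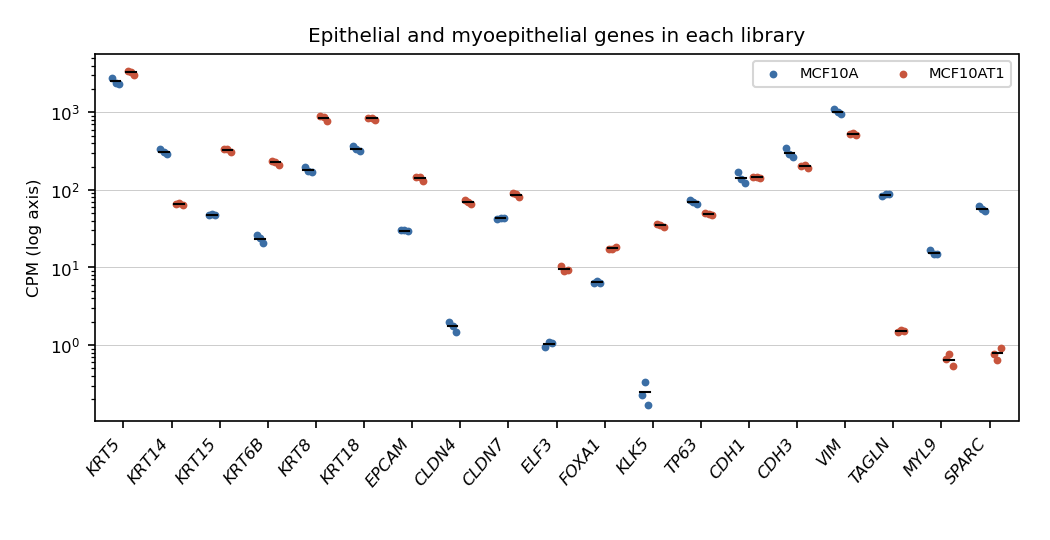
CPM in each library (points, logarithmic axis) of keratin, luminal, basal and barrier genes, MCF10A in blue and MCF10AT1 in red, with the mean of each line as a bar. Luminal keratins, CLDN4 and KLK5 lay higher in MCF10AT1, and KRT14, TAGLN and SPARC lay lower.

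Cell junction genes moved individually. Tight junction genes rose in 9 and fell in 6 of 23. CLDN4, a sealing claudin, was at 1.98, 1.78 and 1.45 CPM in MCF10A and 73.5, 68.9 and 65.3 CPM in MCF10AT1 (log2 change 5.32 ± 0.10, adjusted p = 2.7e-11), and CLDN7 and CLDN1 rose by 1.01 and 0.76. F11R and OCLN, the junctional adhesion molecule A and occludin genes, fell by 0.81 and 0.72. JAM3 had 139, 130 and 125 counts in MCF10A and 0, 2 and 0 counts in MCF10AT1. CDH1 was at 168, 137 and 124 CPM in MCF10A and 147, 145 and 142 CPM in MCF10AT1, with overlapping values (log2 change 0.02 ± 0.10, adjusted p = 0.87, and a log2 change of 0.16 with an adjusted p of 0.021 without MCF10A replicate 1), and CDH3, P-cadherin, fell by 0.57 ± 0.09. Desmosome and cornified envelope genes fell in 10 and rose in 6 of 20. Of the 11 outside the 4 chromosome segments described below, 6 fell and 4 rose. PPL, the plakin that links desmosomes to keratin, was at 18.6, 15.1 and 13.9 CPM in MCF10A and 108, 109.8 and 120.1 CPM in MCF10AT1 (log2 change 2.83 ± 0.10, adjusted p = 2.8e-09), whereas SPRR1A, a cornified envelope precursor, was at 2.32, 1.96 and 1.58 CPM in MCF10A and 0.255, 0.166 and 0.145 CPM in MCF10AT1 (log2 change -3.35 ± 0.25, adjusted p = 8.2e-07). The hemidesmosome integrin genes ITGA6 and ITGB4 rose by 0.48 and 0.52, and the laminin chain genes LAMA3 and LAMB3 changed by -0.41 and -0.36, and by -0.25 and -0.21 without MCF10A replicate 1.

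Kallikreins and SERPINB genes mostly rose, while PLAU and, as given below, the metalloproteinase inhibitor genes fell. All 7 kallikrein genes that were measured rose, with a median of 3.03, and 4 rose when 50 counts were required. A further 9 of the 16 listed were below the count minimum, and a member at the floor in MCF10A could reach the minimum only by being higher in MCF10AT1. Kallikreins are serine proteases that cut desmosomal and matrix proteins in shed epithelium. KLK5, which activates other kallikreins, was at 0.227, 0.335 and 0.171 CPM in MCF10A and 36.1, 35 and 33.4 CPM in MCF10AT1 (log2 change 7.15 ± 0.12, adjusted p = 2.1e-11). KLK10 was at 0.787, 0.548 and 0.570 CPM in MCF10A and 3.74, 4.14 and 3.67 CPM in MCF10AT1 (log2 change 2.60 ± 0.15, adjusted p = 1.5e-07), and KLK6 had 3, 0 and 3 counts in MCF10A and 184, 132 and 111 counts in MCF10AT1. All of them lie in one cluster on the long arm of chromosome 19, where most other genes were also higher, as given below. The SERPINB genes, intracellular serine protease inhibitors, rose in 7 and fell in 2 of 9 (median 1.03). SERPINB2, an inhibitor of plasminogen activators, was at 1.08, 1.51 and 1.63 CPM in MCF10A and 5.82, 6.19 and 6.25 CPM in MCF10AT1 (log2 change 2.11 ± 0.14, adjusted p = 3.1e-07). SERPINB13 and SERPINB3 rose by 2.05 ± 0.12 and 1.70 ± 0.11. Urokinase itself, encoded by PLAU, was at 231, 217 and 197 CPM in MCF10A and 31.1, 30.6 and 27.8 CPM in MCF10AT1 (log2 change -2.85 ± 0.08, adjusted p = 4.7e-10).

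Matrix genes fell more often than they rose. Of 24 collagen genes 14 fell and 6 rose (median -0.45), and 3 rose when 50 counts were required. The basement membrane chains COL4A5 and COL4A6 fell by 0.89 ± 0.08 and 1.08 ± 0.10, and COL6A3 by 2.30 ± 0.12. COL12A1, a fibril-associated collagen, was at 75.0, 63.2 and 61.2 CPM in MCF10A and 149, 149 and 173 CPM in MCF10AT1 (log2 change 1.24 ± 0.09, adjusted p = 6.8e-07), and COL13A1 rose by 2.14 ± 0.16. Matrix metalloproteinases, ADAMTS proteases and their inhibitors fell in 13 and rose in 7 of 27. MMP9, gelatinase B, had 1090, 915 and 936 counts in MCF10A and 1, 1 and 0 counts in MCF10AT1. The inhibitor gene TIMP1 was at 671, 616 and 575 CPM in MCF10A and 223, 216 and 198 CPM in MCF10AT1 (log2 change -1.55 ± 0.08, adjusted p = 4.7e-08), and TIMP2 and TIMP3 fell by 0.89 and 0.58. MMP14, a membrane-bound activator of other metalloproteinases, fell by 0.61 ± 0.10.

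Other matrix glycoproteins changed in both directions. THBS1, thrombospondin 1, was at 485, 409 and 383 CPM in MCF10A and 1647, 1611 and 1636 CPM in MCF10AT1 (log2 change 1.94 ± 0.09, adjusted p = 3.0e-08), the collagen cross-linking enzyme gene LOX at 32.7, 28.7 and 27.9 CPM in MCF10A and 94.6, 98.3 and 91.4 CPM in MCF10AT1 (log2 change 1.67 ± 0.07, adjusted p = 9.8e-09), and DCN, the proteoglycan decorin, at 3.80, 4.51 and 4.73 CPM in MCF10A and 30.3, 31.3 and 30.5 CPM in MCF10AT1 (log2 change 2.82 ± 0.08, adjusted p = 5.1e-10). The elastic fibre genes FBN2 and FBLN1 fell by 1.99 ± 0.08 and 1.98 ± 0.09, and TNC, tenascin C, by 1.53 ± 0.10. FN1, fibronectin, overlapped between the lines (log2 change 0.06 ± 0.11, adjusted p = 0.65, and a log2 change of 0.21 with an adjusted p of 0.0094 without MCF10A replicate 1). Integrin genes rose in 6 and fell in 9 of 21. ITGA4, an alpha subunit that binds fibronectin and VCAM1, was at 8.57, 7.58 and 7.34 CPM in MCF10A and 0.105, 0.0906 and 0.0646 CPM in MCF10AT1 (log2 change -6.46 ± 0.17, adjusted p = 3.7e-10), and ITGB8, which activates latent TGF-beta, at 36.5, 34.4 and 34.2 CPM in MCF10A and 106, 105 and 115 CPM in MCF10AT1 (log2 change 1.63 ± 0.06, adjusted p = 3.4e-09). ITGAV and ITGA1 fell by 1.06 and 1.29.

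S100 genes, which encode small calcium-binding proteins, fell in 7 and rose in 4 of 14. The calprotectin pair fell together: S100A8 was at 55.8, 71.3 and 82.5 CPM in MCF10A and 1.14, 1.21 and 1.31 CPM in MCF10AT1 (log2 change -5.84 ± 0.16, adjusted p = 5.1e-10) and S100A9 at 261, 307 and 366 CPM in MCF10A and 12.9, 12.9 and 13.7 CPM in MCF10AT1 (log2 change -4.56 ± 0.12, adjusted p = 3.9e-10). S100A14 and S100P rose by 1.0 ± 0.08 and 1.10 ± 0.10. Among tetraspanins, CD9 rose by 1.02 ± 0.06, CD82 fell by 0.79 ± 0.11, and TSPAN18 was at 18.5, 15.6 and 14.7 CPM in MCF10A and 0.600, 0.408 and 0.420 CPM in MCF10AT1 (log2 change -5.08 ± 0.15, adjusted p = 7.7e-10). Annexin A6, encoded by ANXA6, fell by 2.90 ± 0.10, and ANXA1 rose by 1.03 ± 0.08.

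Interferon-stimulated genes are switched on by factors downstream of the interferon receptors, which bind a composite DNA element in their promoters. Of 46 such genes measured, 33 fell and 7 rose, against 30.7% and 31% of all genes, and the median was -0.76. At least 2-fold falls numbered 14 and at least 2-fold rises 1. Promoters of 4 members are printed because they share the element while their transcripts moved in both directions. Each is the window from 250 bases before to 50 bases after the annotated start in RefSeq (GRCh38.p14), given on the strand of the gene from 5′ to 3′, with matches to GAAANNGAA on either strand in capitals. IFIT1 (chr10:89392373-89392672, plus strand), HERC5 (chr4:88456869-88457168, plus strand) and BST2 (chr19:17405581-17405880, minus strand) fell, and EPSTI1 (chr13:42992192-42992491, minus strand) rose.
IFIT1: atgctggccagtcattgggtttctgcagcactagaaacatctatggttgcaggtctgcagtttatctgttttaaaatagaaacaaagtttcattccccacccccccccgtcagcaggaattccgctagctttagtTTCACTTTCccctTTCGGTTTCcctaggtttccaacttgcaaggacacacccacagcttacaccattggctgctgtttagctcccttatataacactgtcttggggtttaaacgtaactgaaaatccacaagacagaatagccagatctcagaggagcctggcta
HERC5: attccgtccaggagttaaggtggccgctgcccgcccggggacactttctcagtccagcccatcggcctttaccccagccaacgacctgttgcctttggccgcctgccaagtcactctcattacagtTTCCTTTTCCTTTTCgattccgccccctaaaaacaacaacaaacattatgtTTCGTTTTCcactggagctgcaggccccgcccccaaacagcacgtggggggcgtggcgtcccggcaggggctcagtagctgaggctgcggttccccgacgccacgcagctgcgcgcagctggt
BST2: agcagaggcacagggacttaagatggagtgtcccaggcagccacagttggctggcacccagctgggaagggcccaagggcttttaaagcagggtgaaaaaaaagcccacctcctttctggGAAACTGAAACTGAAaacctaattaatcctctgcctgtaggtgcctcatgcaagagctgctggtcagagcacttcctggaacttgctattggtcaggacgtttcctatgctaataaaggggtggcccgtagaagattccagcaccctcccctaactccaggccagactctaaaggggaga
EPSTI1: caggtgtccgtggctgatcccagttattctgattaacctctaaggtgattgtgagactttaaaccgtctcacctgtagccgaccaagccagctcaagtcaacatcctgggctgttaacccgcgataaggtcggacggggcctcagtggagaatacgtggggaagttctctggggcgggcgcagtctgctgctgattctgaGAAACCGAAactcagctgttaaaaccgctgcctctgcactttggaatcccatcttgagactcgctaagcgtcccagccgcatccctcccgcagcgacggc

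The windows of IFIT1, HERC5, BST2 and EPSTI1 held 2, 3, 2 and 1 matches, some of them overlapping. A match was found in 25 of the 37 interferon-stimulated genes with a promoter in the table (67.6%), against 6.8% of the 11576 promoters of measured genes and 8.3% of all 27305. It was present in 5 of the 6 members that rose and 18 of the 27 that fell. BST2, the antiviral membrane tether tetherin, was at 38.4, 39.5 and 39.7 CPM in MCF10A and 3.75, 3.91 and 4.12 CPM in MCF10AT1 (log2 change -3.32 ± 0.06, adjusted p = 2.9e-11). IFIT1, which binds foreign RNA, was at 2.20, 1.95 and 2.42 CPM in MCF10A and 0.825, 0.695 and 0.872 CPM in MCF10AT1 (log2 change -1.46 ± 0.16, adjusted p = 1.4e-05). HERC5, the ligase that attaches ISG15 to proteins, had 304, 297 and 279 counts in MCF10A and 4, 3 and 3 counts in MCF10AT1. UBE2L6, which works in the same ISG15 pathway, was at 14.8, 15.0 and 15.4 CPM in MCF10A and 1.37, 1.22 and 1.23 CPM in MCF10AT1 (log2 change -3.56 ± 0.09, adjusted p = 1.6e-10), and the guanylate-binding protein gene GBP2 at 10.5, 10.0 and 8.78 CPM in MCF10A and 1.13, 1.13 and 1.36 CPM in MCF10AT1 (log2 change -3.02 ± 0.12, adjusted p = 5.2e-09). EPSTI1, an epithelial-stromal interaction gene, was the only member to rise at least 2-fold, at 0.182, 0.259 and 0.314 CPM in MCF10A and 7.97, 7.82 and 6.77 CPM in MCF10AT1 (log2 change 4.89 ± 0.16, adjusted p = 1.9e-09). TRIM22 and SAMD9 rose by 0.56 ± 0.06 and 0.39 ± 0.05.

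HLA class I genes, which present peptides to T cells, and the peptide loading genes fell in 14 of 18 cases and rose in 0, or in 1 without MCF10A replicate 1. HLA-B was at 179, 175 and 162 CPM in MCF10A and 56.7, 56.4 and 51.8 CPM in MCF10AT1 (log2 change -1.65 ± 0.07, adjusted p = 6.7e-09). Reads of the near-identical class I genes can be exchanged between them, so single HLA genes are uncertain. B2M, their shared light chain, was at 665, 795 and 891 CPM in MCF10A and 624, 649.8 and 699 CPM in MCF10AT1 with overlapping values (log2 change -0.25 ± 0.10, adjusted p = 0.052), and had a log2 change of -0.36 with an adjusted p of 5.4e-04 without MCF10A replicate 1. HLA class II genes, by contrast, were low and rose in 6 and fell in 0 of the 7 measured, with a median of 1.71, and 2 rose when 50 counts were required. A further 14 of the 21 listed were below the count minimum, which a member absent from MCF10A could reach only by being higher in MCF10AT1. HLA-DOB, a chain that modulates peptide loading of class II, had 27, 37 and 44 counts in MCF10A and 131, 105 and 105 counts in MCF10AT1 (log2 change 1.71 ± 0.19, adjusted p = 2.0e-05). CALR, the chaperone calreticulin, was at 962, 917 and 819 CPM in MCF10A and 419, 409 and 369 CPM in MCF10AT1 (log2 change -1.17 ± 0.08, adjusted p = 6.1e-07). CD274, which encodes PD-L1 and lies on chromosome 9, rose by 1.07 ± 0.09.

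Inflammatory genes fell in 21 and rose in 9 of 32 (median -0.67). The acute phase gene SAA1 was at 187, 190.3 and 189.6 CPM in MCF10A and 15.3, 14.5 and 13.5 CPM in MCF10AT1 (log2 change -3.71 ± 0.07, adjusted p = 2.3e-11), CSF3, granulocyte colony-stimulating factor, at 160.3, 156 and 158 CPM in MCF10A and 0.360, 0.287 and 0.452 CPM in MCF10AT1 (log2 change -8.75 ± 0.10, adjusted p = 4.0e-12), and IL32 at 18.6, 18.5 and 19 CPM in MCF10A and 1.01, 0.997 and 0.937 CPM in MCF10AT1 (log2 change -4.25 ± 0.08, adjusted p = 3.6e-11). All 3 separated the lines by more than an order of magnitude. The interleukin 1 genes IL1A and IL1B fell by 1.28 ± 0.08 and 1.80 ± 0.07, while their antagonist IL1RN was at 1.36, 1.17 and 0.998 CPM in MCF10A and 5.18, 4.91 and 4.56 CPM in MCF10AT1 (log2 change 2.05 ± 0.13, adjusted p = 2.4e-07). The NF-kB feedback inhibitor genes NFKBIA and TNFAIP3 fell by 1.0 ± 0.05 and 0.97 ± 0.05. IL6 and IL33 went the other way: IL6 was at 0.666, 0.304 and 0.770 CPM in MCF10A and 3.86, 3.61 and 3.97 CPM in MCF10AT1 (log2 change 2.71 ± 0.23, adjusted p = 2.5e-06) and IL33 at 0.50, 0.381 and 0.413 CPM in MCF10A and 4.08, 4.64 and 4.67 CPM in MCF10AT1 (log2 change 3.37 ± 0.14, adjusted p = 1.3e-08). ICAM1, a leukocyte adhesion receptor, had 1743, 1545 and 1513 counts in MCF10A and 1 count in each MCF10AT1 library.

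Complement genes fell in 11 and rose in 3 of 16 (median -0.72). C3, the central component, was at 691, 567 and 511 CPM in MCF10A and 183, 179 and 178 CPM in MCF10AT1 (log2 change -1.71 ± 0.10, adjusted p = 1.5e-07), and CFB, its partner in the alternative pathway, at 19.5, 16.4 and 14.1 CPM in MCF10A and 3.00, 2.85 and 3.18 CPM in MCF10AT1 (log2 change -2.47 ± 0.12, adjusted p = 3.3e-08). CFI and C1R fell by 2.45 ± 0.12 and 1.79 ± 0.13. The membrane regulator gene CD55 rose by 0.33 ± 0.06. Among chemokines 7 of 11 fell and 2 rose. Rises numbered 1 when 50 counts were required, and 1 without the 4 chromosome segments described below. CXCL3 rose by 1.37 ± 0.09 while its neighbour CXCL2 fell by 0.78 ± 0.07. The leukocyte marker sum was lower alongside these lists, moving from the range of 29.2 to 36.8 CPM to that of 10.3 to 11.2 CPM, with CD3E and TYROBP at 0; its part in the immune gene values was not tested.

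**Figure D4:**
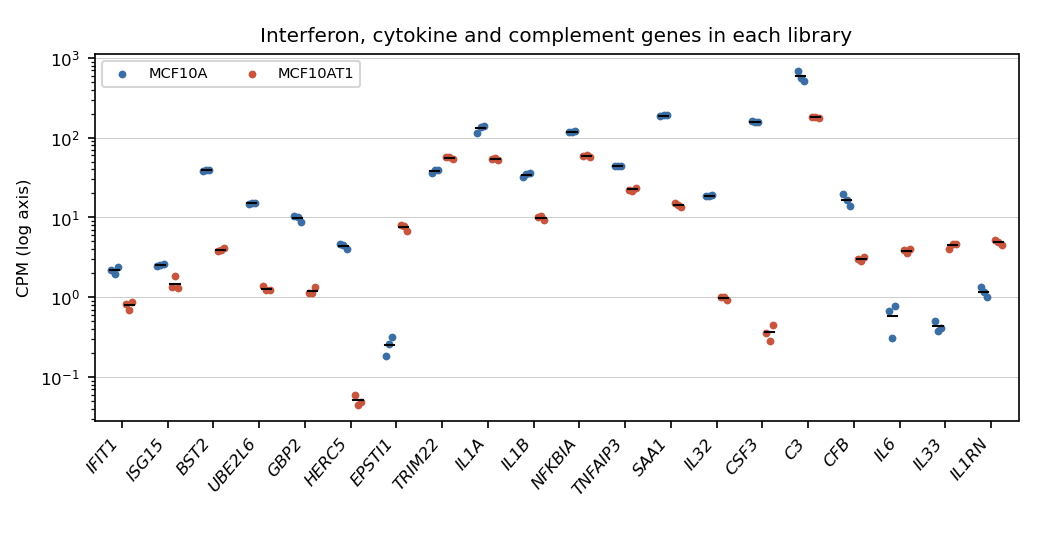
CPM in each library (points, logarithmic axis) of interferon, cytokine and complement genes, MCF10A in blue and MCF10AT1 in red, with the mean of each line as a bar. Most genes lay lower in MCF10AT1, and EPSTI1, TRIM22, IL6, IL33 and IL1RN lay higher.

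Lipid synthesis genes rose more often than they fell. Of 31 genes of cholesterol synthesis, uptake and efflux, 22 rose and 3 fell (median 0.50). INSIG1, a feedback sensor of sterols, was at 78.4, 74.2 and 74.8 CPM in MCF10A and 307, 315 and 303 CPM in MCF10AT1 (log2 change 2.02 ± 0.06, adjusted p = 7.0e-10). MSMO1 and FDFT1, enzymes of the later steps, were at 223, 247 and 267 CPM in MCF10A and 663, 689 and 667 CPM in MCF10AT1 (log2 change 1.45 ± 0.08, adjusted p = 6.2e-08) and 381, 393 and 402 CPM in MCF10A and 971, 967 and 887 CPM in MCF10AT1 (log2 change 1.26 ± 0.07, adjusted p = 7.9e-08). HMGCS1, the first committed synthase, rose by 1.08 ± 0.07. Those that fell included PMVK and FDPS (-1.16 and -0.23), both on chromosome 1, and FDPS had a log2 change of -0.23 with an adjusted p of 0.059 without MCF10A replicate 2. Serum supplies cells with cholesterol, and the 5% and 2.5% of the media cannot be told apart from the lines in these values.

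Fatty acid genes rose in 13 and fell in 7 of 22. SCD, the main stearoyl-CoA desaturase, was at 855, 742 and 667 CPM in MCF10A and 2383, 2349 and 2313 CPM in MCF10AT1 (log2 change 1.64 ± 0.10, adjusted p = 1.2e-07), FASN, fatty acid synthase, at 469, 409.5 and 432 CPM in MCF10A and 1011, 1026 and 1152 CPM in MCF10AT1 (log2 change 1.28 ± 0.08, adjusted p = 2.6e-07), and ACSS2, which makes acetyl-CoA from acetate, at 35.1, 32.1 and 30.5 CPM in MCF10A and 191, 192 and 179.7 CPM in MCF10AT1 (log2 change 2.52 ± 0.07, adjusted p = 4.3e-10). SREBF1, the transcription factor gene of this pathway, rose by 1.24 ± 0.09. A second set fell: FADS2, the first desaturase of polyunsaturated fatty acids, was at 119, 98.0 and 86.8 CPM in MCF10A and 7.77, 8.84 and 8.14 CPM in MCF10AT1 (log2 change -3.62 ± 0.12, adjusted p = 1.4e-09), FADS1 fell by 0.65 ± 0.07 and SCD5, a second stearoyl-CoA desaturase, by 2.70 ± 0.09. ACACB and GPAM also fell, by 2.52 and 1.37.

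Glycolysis and pentose phosphate genes moved in both directions, with 9 of 28 higher and 9 lower. Falls numbered 5 without MCF10A replicate 2 or MCF10AT1 replicate 1, and 4 without MCF10AT1 replicate 3. The glucose transporter gene SLC2A1 rose by 0.75 ± 0.09 and SLC2A3 by 2.41 ± 0.14. The pentose phosphate enzyme genes PGD and TKT rose by 0.75 ± 0.07 and 0.65 ± 0.08, LDHA fell by 0.29 ± 0.08, and GAPDH overlapped. Hypoxia response genes fell in 13 and rose in 10 of 29. CA12, a membrane carbonic anhydrase, was at 202, 178 and 159 CPM in MCF10A and 61.4, 62.7 and 58.2 CPM in MCF10AT1 (log2 change -1.56 ± 0.09, adjusted p = 7.7e-08), ANGPTL4 fell by 1.43 ± 0.08, EGLN3 by 1.79 ± 0.14 and VEGFA by 0.49 ± 0.06. The list's rises included SLC2A3 and SLC2A1, above, and LOX (1.67). Amino acid transporters included large changes in both directions: SLC6A14, a broad-range transporter, was at 0.333, 0.441 and 0.271 CPM in MCF10A and 14.5, 13.9 and 12.4 CPM in MCF10AT1 (log2 change 5.28 ± 0.14, adjusted p = 3.9e-10), SLC7A2, an arginine transporter, at 60.0, 57.5 and 52.7 CPM in MCF10A and 9.40, 9.59 and 10.1 CPM in MCF10AT1 (log2 change -2.55 ± 0.07, adjusted p = 3.3e-10), and SLC7A5, the leucine transporter, fell by 0.78 ± 0.10.

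Stress genes moved in both directions. Among p53 targets 17 of 30 rose and 6 fell. CDKN1A, the cell cycle inhibitor p21, was at 162, 151 and 147 CPM in MCF10A and 366, 368 and 349 CPM in MCF10AT1 (log2 change 1.23 ± 0.06, adjusted p = 5.0e-08). MDM2 rose by 0.35 ± 0.06 and GDF15 by 1.39 ± 0.08, and TP53I3 fell by 1.35 ± 0.06. ATF4 and amino acid stress genes rose in 15 and fell in 6 of 26. DDIT4, an inhibitor of mTOR signalling, was at 462, 453 and 445 CPM in MCF10A and 1309, 1334 and 1174 CPM in MCF10AT1 (log2 change 1.49 ± 0.07, adjusted p = 3.9e-08), TRIB3 rose by 1.06 ± 0.06 and ASNS, asparagine synthetase, by 0.69 ± 0.06. ALDH1L2, a mitochondrial folate enzyme, fell by 2.39 ± 0.07. In the unfolded protein response list 12 of 22 fell and 1 rose, the riser being DNAJB9 (0.63 ± 0.10); 2 rose without MCF10A replicate 1. ATF6 and EDEM1 fell by 0.94 and 0.89, and the central chaperone gene HSPA5 overlapped (log2 change 0.01 ± 0.10, adjusted p = 0.91). NRF2 genes rose in 13 and fell in 8 of 26, and NQO1 and TXN moved apart, by -0.36 and 1.08. Of the heat shock genes HSPA1A fell by 1.58 ± 0.09, HSPD1 rose by 0.53 ± 0.07, and HSPB8 had 190, 187 and 218 counts in MCF10A and 2, 1 and 3 counts in MCF10AT1.

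Mitotic genes fell together, mostly by less than 2-fold. Of 43 genes of mitosis and the spindle checkpoint 35 fell and 1 rose, with a median of -0.42, and 3 fell at least 2-fold. Many such genes carry a cell cycle element, bound by the DREAM and B-MYB complexes, that ends in TTTGAA. The RefSeq promoters of TOP2A (chr17:40417847-40418146, minus strand) and CDK1 (chr10:60778081-60778380, plus strand) are shown as 2 genes of this list with matches, which are in capitals on either strand.
TOP2A: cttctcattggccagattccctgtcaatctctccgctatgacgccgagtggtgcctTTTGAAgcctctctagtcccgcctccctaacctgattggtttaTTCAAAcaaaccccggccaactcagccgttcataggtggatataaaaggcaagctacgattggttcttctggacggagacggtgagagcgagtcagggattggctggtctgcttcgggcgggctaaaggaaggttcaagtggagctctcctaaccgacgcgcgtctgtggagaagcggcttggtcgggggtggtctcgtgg
CDK1: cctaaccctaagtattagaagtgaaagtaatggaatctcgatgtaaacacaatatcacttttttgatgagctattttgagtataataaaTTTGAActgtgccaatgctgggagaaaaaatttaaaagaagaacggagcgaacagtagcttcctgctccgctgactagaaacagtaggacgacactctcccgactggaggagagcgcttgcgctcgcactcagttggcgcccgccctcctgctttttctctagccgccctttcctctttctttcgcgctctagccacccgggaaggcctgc

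TTTGAA was present in 26 of the 36 mitotic genes with a promoter in the table (72.2%), against 10.1% of the promoters of measured genes and 15.4% of all promoters. A match lay in 20 of the 29 members that fell and in 0 of the 1 that rose. The windows of CCNB1 and BUB1, of the same list, held none. TOP2A, topoisomerase II alpha, was at 689.9, 647 and 623 CPM in MCF10A and 442, 443 and 400.1 CPM in MCF10AT1 (log2 change -0.61 ± 0.07, adjusted p = 3.3e-05), and CDK1, the mitotic kinase, at 281, 333 and 371 CPM in MCF10A and 239.5, 259 and 244 CPM in MCF10AT1 (log2 change -0.41 ± 0.09, adjusted p = 0.0032). AURKA, a spindle pole kinase, fell by 0.37 ± 0.06, and ESPL1, separase, by 1.10 ± 0.08. The 2 largest falls were of genes on chromosome 1, CENPF, at 459.7, 422 and 394 CPM in MCF10A and 160.3, 157 and 177 CPM in MCF10AT1 (log2 change -1.37 ± 0.08, adjusted p = 1.1e-07), and ASPM, at 318, 309.7 and 287 CPM in MCF10A and 138, 134 and 138 CPM in MCF10AT1 (log2 change -1.16 ± 0.06, adjusted p = 7.0e-08). MKI67, the proliferation marker, fell by 0.39 ± 0.08. Rises numbered 2 without MCF10A replicate 1 or 3, and 0 without MCF10A replicate 2 or MCF10AT1 replicate 1 or 2. The riser over all 6 libraries was PTTG1, securin, whose change of 0.21 had an adjusted p between 0.053 and 0.068 when MCF10A replicate 2 or any of the MCF10AT1 replicates was left out.

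Other pairs of a list and a motif were searched in the same windows on both strands. The sterol element TCACNNCAC was found in 1 of 23 promoters of cholesterol genes and in 0 of the 17 of those that rose, against 3.0% of the promoters of measured genes. The E-box CACGTG was found in 4 of the 23, against 9.8%. In ERK feedback and output genes the ETS motif CCGGAAGT was found in 0 of 16, against 8.5%, and the AP-1 motif TGANTCA in 5 of 16, against 5.0%. It was present in 2 of the 10 ERK output genes that rose and in 1 of the 3 that fell. The AP-1 motif was found in 1 of 16 promoters of the AP-1 and immediate early genes and in 0 of 5 of the kallikreins. The NRF2 motif TGACNNNGC was found in 4 of 18 promoters of NRF2 genes, against 15.1%, and the ATF4 motif TGATGNAA in 4 of 21 of the ATF4 and amino acid stress genes, against 1.8%. The interferon element GAAANNGAA was found in 7 of 14 promoters of HLA class I and loading genes, against 6.8%. The absence of a match says only that these letters are not in the window.

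Replication genes fell in 23 and rose in 4 of 40, none of them 2-fold. RRM2, a subunit of ribonucleotide reductase, was at 434, 439 and 436 CPM in MCF10A and 345, 347 and 323 CPM in MCF10AT1 (log2 change -0.37 ± 0.06, adjusted p = 4.1e-04), RRM1 fell by 0.47 ± 0.08 and TK1 by 0.49 ± 0.06. PCNA, the sliding clamp, rose by 0.33 ± 0.08. Homologous recombination and Fanconi genes fell in 17 and rose in 4 of 28. BRIP1, a helicase that works with BRCA1, was at 43.8, 42.0 and 40.3 CPM in MCF10A and 21.0, 20.0 and 21.0 CPM in MCF10AT1 (log2 change -1.02 ± 0.05, adjusted p = 6.4e-08), BRCA1 fell by 0.55 ± 0.06, and RBBP8, a nuclease cofactor for end resection, rose by 0.53 ± 0.07. At the entry to the cycle, CCND2 had 1522, 1257 and 1449 counts in MCF10A and 0, 1 and 0 counts in MCF10AT1, CCND3 fell by 0.66 ± 0.06, CDK6 rose by 0.57 ± 0.06, and the inhibitor gene CDKN1B fell by 0.68 ± 0.05.

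Chromosome structure genes fell with the mitotic set. 14 of 18 cohesin, CTCF and boundary genes and 6 of 8 condensin genes fell, and 1 and 0 rose. NCAPG and NCAPH, condensin I subunits, fell by 0.61 ± 0.06 and 0.69 ± 0.07, CTCF fell by 0.37 ± 0.07, and ESCO1, a cohesin acetyltransferase, rose by 0.29 ± 0.06. H3K9 methylation, HP1 and DNA methylation genes fell in 16 and rose in 3 of 24. DNMT3B, a de novo DNA methyltransferase, was at 5.91, 5.37 and 5.80 CPM in MCF10A and 2.00, 2.05 and 2.16 CPM in MCF10AT1 (log2 change -1.46 ± 0.10, adjusted p = 3.3e-07), DNMT1 fell by 0.41 ± 0.07 and TET2 by 0.75 ± 0.06. SWI/SNF remodeler genes fell in 13 and rose in 3 of 24 (6 without MCF10A replicate 1), with ARID1A lower by -0.55 ± 0.07 and BCL7A by -0.82 ± 0.06 on the log2 scale. Polycomb genes were balanced at 7 higher and 8 lower of 30, and EZH2, the methyltransferase, did not pass the test (log2 change 0.10 ± 0.05, adjusted p = 0.12).

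HOX genes, which hold positional identity, rose in 7 and fell in 11 of 23. Of the HOXA cluster, HOXA7 was at 0.227, 0.198 and 0.228 CPM in MCF10A and 4.61, 5.09 and 4.41 CPM in MCF10AT1 (log2 change 4.42 ± 0.15, adjusted p = 2.2e-09), HOXA5 at 23.2, 21.7 and 23.7 CPM in MCF10A and 8.68, 9.17 and 8.56 CPM in MCF10AT1 (log2 change -1.38 ± 0.06, adjusted p = 2.0e-08), and HOXA11 had 95, 105 and 118 counts in MCF10A and no counts in any MCF10AT1 library. In the HOXB cluster HOXB9 was at 0.197, 0.244 and 0.143 CPM in MCF10A and 2.73, 2.54 and 2.67 CPM in MCF10AT1 (log2 change 3.76 ± 0.19, adjusted p = 4.3e-08) and HOXB4 had 266, 237 and 235 counts in MCF10A and no counts in any MCF10AT1 library. Genes named ZNF, mostly zinc finger repressors, rose in 167 and fell in 141 of 439. At least 2-fold falls (54) outnumbered at least 2-fold rises (28). Members such as ZNF736 had 313, 327 and 342 counts in MCF10A and no counts in any MCF10AT1 library, and ZNF229 was at 0.515, 0.411 and 0.328 CPM in MCF10A and 5.79, 6.01 and 5.85 CPM in MCF10AT1 (log2 change 3.81 ± 0.15, adjusted p = 5.1e-09).

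Mitochondrial ribosomal and respiratory chain genes rose in small steps, against 31% of all genes higher and 30.7% lower. Mitochondrial ribosomal protein genes rose in 52 and fell in 6 of 78, and nuclear-encoded respiratory chain genes in 45 and 3 of 78, with medians of 0.28 and 0.26. Falls of respiratory chain genes numbered 7 without MCF10A replicate 1 and 9 on the log2(TPM + 1) scale. NDUFB6, a complex I subunit, was at 45.9, 55.3 and 63.3 CPM in MCF10A and 123, 129 and 137 CPM in MCF10AT1 (log2 change 1.24 ± 0.10, adjusted p = 1.8e-06), and MRPL50, of the large mitochondrial subunit, at 47.3, 56.5 and 61.0 CPM in MCF10A and 102, 105 and 111 CPM in MCF10AT1 (log2 change 0.95 ± 0.09, adjusted p = 4.0e-06). For both genes MCF10A replicate 1 was the lowest library and all MCF10AT1 values lay above all MCF10A values. Both lie on chromosome 9, where most genes were higher, as given below. Outside the 4 chromosome segments described below, 48 of 68 mitochondrial ribosomal and 41 of 70 respiratory chain genes rose, with medians of 0.28 and 0.26. Of 77 cytosolic ribosomal protein genes 30 rose, 3 fell and the others did not pass the test, with a median of 0.24. That median was 0.13 without MCF10A replicate 1 and 0.34 without MCF10A replicate 3, with 30 and 57 rises, and it was 0.08 on the log2(TPM + 1) scale, with 17 rises. Rises numbered 17 without MCF10A replicate 2 or MCF10AT1 replicate 2 or 3, and 50 with the replicate number as a block. All 12 cytosolic ribosomal genes in the chromosome 9 and 19 segments described below rose. Of the 63 outside the 4 segments 18 rose and 1 fell, with a median of 0.22. RPS6, a small-subunit protein gene on chromosome 9, was at 1649, 2085 and 2440.4 CPM in MCF10A and 3719, 3936 and 4021 CPM in MCF10AT1 (log2 change 0.92 ± 0.13, adjusted p = 9.3e-05). Proteasome genes were divided, 13 higher and 11 lower of 34. Ribosome biogenesis genes fell in 12 and rose in 6 of 30, NPM1, nucleophosmin, being among the risers (0.64 ± 0.09).

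Genes present in one line and at the floor in the other were a small set: 28 genes had at most 3 counts in each MCF10A library and at least 100 in each MCF10AT1 library, and 56 showed the reverse. LRRC34, which encodes a leucine-rich repeat protein, had no counts in any MCF10A library and 581, 584 and 531 counts in MCF10AT1, which made it at least 195-fold higher against a floor of 3 counts a library. MIA, a small secreted protein found in melanoma, had 1, 3 and 0 counts in MCF10A and 2055, 2154 and 1970 counts in MCF10AT1, CALB2, the calcium-binding protein calretinin, 3 counts in each MCF10A library and 867, 887 and 822 counts in MCF10AT1, and TMEM30B, a subunit of lipid flippases, 1, 3 and 3 counts in MCF10A and 1478, 1590 and 1419 counts in MCF10AT1. GJA1, the gap junction protein connexin 43, which was chosen after its values were seen, had no counts in any MCF10A library and 296, 270 and 254 counts in MCF10AT1, which made it at least 94.3-fold higher. Of those lost in MCF10AT1, TUB, which encodes tubby and was also chosen after its values were seen, had 807, 849 and 852 counts in MCF10A and no counts in any MCF10AT1 library and was at least 268.6-fold lower. GALNT14, an enzyme of O-glycosylation, had 981, 863 and 825 counts in MCF10A and no counts in any MCF10AT1 library, which made it at least 286-fold lower. CCND2, ICAM1 and MMP9 belong to the same set. The copies H2AC18 and H2AC19 of one histone gene exchanged their zeros between the lines. Reads of such similar copies may be exchanged between them, which was not tested. Both are counted among the 28 and 56 genes above.

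The changes were not spread evenly over the genome. Genes were placed in 10 Mb windows, and 268 windows held at least 20 genes. The median log2 change of 235 windows lay between -0.25 and 0.25. All 14 windows with a median above 0.35 lay on chromosome 9 or 19, and all 12 with a median under -0.35 on chromosome 1 or 8. The 744 genes of chromosome 1 from 140 Mb on had a median of -0.69, with 10.6% higher and 71.6% lower, and 209 genes of chromosome 8 from 100 Mb on a median of -0.44. Chromosome 9 (657 genes) had a median of 0.48, with 67.4% higher and 7.2% lower, and chromosome 19 from 30 Mb on (577 genes) a median of 0.49. Over the 14094 genes placed elsewhere 29.3% were higher and 30.4% lower, and the median was -0.0008. A further 614 genes had no position in the annotation used, with 27.5% higher, 20.7% lower and a median of 0.06. These boundaries were drawn after the windows had been seen.

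**Figure D5:**
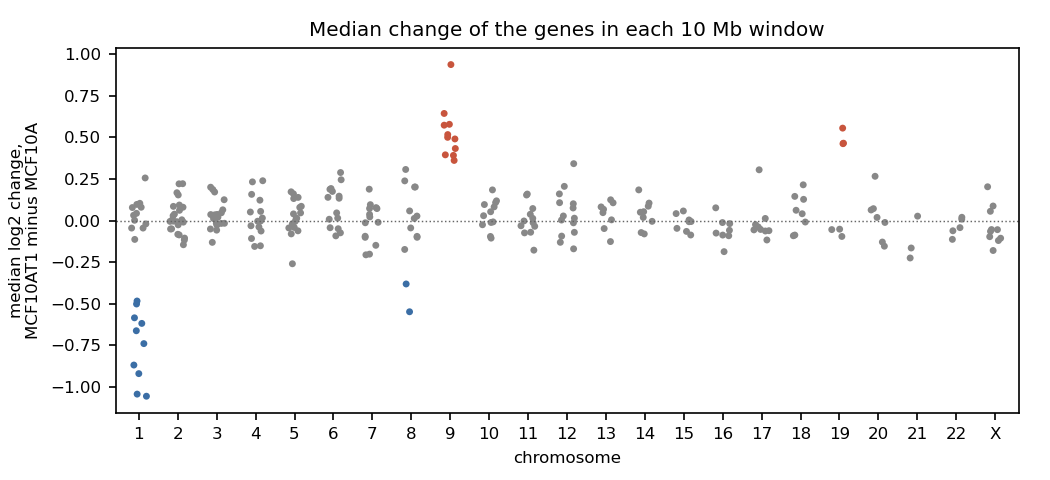
Median log2 change (MCF10AT1 minus MCF10A, vertical axis) of the genes in each 10 Mb window with at least 20 genes, one point per window, in chromosome order along the horizontal axis. Windows of chromosomes 9 and 19 rise above 0.35 and windows of chromosomes 1 and 8 fall under -0.35.

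Several families lie in these segments. Of the ZNF genes, 157 lie in the chromosome 9 and 19 segments with a median of 0.51, and the 260 outside all 4 segments had a median of -0.08, with 65 higher and 97 lower. All 7 kallikrein genes lie in the chromosome 19 segment. 13 of the 14 S100 genes lie in the chromosome 1 segment, where both the falls of S100A8 and S100A9 and the rise of S100A14 occurred. The mitotic, interferon, AP-1 and cholesterol lists were also described without the 4 segments, an alternative chosen after seeing the data: their medians were -0.40, -0.77, 0.71 and 0.61 over the remaining 40, 45, 16 and 25 genes. The unfolded protein response list had a median of -0.26 over its remaining 20 genes and the respiratory chain list 0.26 over 70.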

How the data were processed

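Polyadenylated RNA of 3 MCF10A and 3 MCF10AT1 libraries was compared. The authors deposited estimated counts per gene, scaled and length-scaled counts, and TPM, made with Salmon on hg38 per the submitters' processing notes. The Salmon version and the annotation release are not given in the sources used here. Estimated counts were rounded to whole numbers, and genes with 10 or more counts in at least 3 of 6 libraries were kept. Library totals were 62.9 to 69.5 M counts, with TMM factors of 0.977 to 1.03.

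Differences were tested with edgeR 4.0.16 (glmQLFit and glmQLFTest, R 4.3.3) with Benjamini-Hochberg adjustment over 16940 genes; every adjusted p in the report is from this test unless another is named. A gene rose or fell where its adjusted p was under 0.05. CPM used TMM-scaled totals, and the sums over markers used raw totals. Gene lists were described by counts and medians, with no test. The comparison, the lists and their members were chosen with earlier results of these data known. Named genes were the anchors of each list and up to 4 largest rises and 4 largest falls among members past the threshold, provided that the higher line averaged 100 counts or more and CPM values did not overlap. Genes at the floor had 3 counts or fewer in every library of a line and 100 or more in every library of the other, and the 10 highest lower bounds per direction could be named. Floors and folds against them cover counting error only.

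Promoters, 250 bases before to 50 after each start, came from the RefSeq table, and motifs were searched on both strands with Python 3.11.15 and pandas 2.3.3. Windows used gene starts of the GENCODE annotation of GRCh38, matched by gene identifier. Alternatives were all 9 libraries in 1 fit, DESeq2 1.42.0 and its size factors, other filters, the other deposited count tables, limma 3.58.1 with trend on log2(TPM + 1) and log2(TPM + 0.1), a replicate block, a test against a log2 change of 1, and leaving out each replicate. Lists without 4 chromosome segments were an alternative chosen after seeing the data. On simulated counts for 16642 genes of this comparison, edgeR recovered 85 of 99 genes changed by log2 1 and 97 of 97 changed by log2 2, with 11 false calls. With none changed, it made 1 false call among 16647 genes. No sequence of proteins was used here. Some genes of these lists are not reported here.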

Additional observations from a re-analysis of the deposited data

How the results depend on the processing

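With 3 libraries a line and a difference in serum between the lines, no alternative separates line from medium. No gene named in the report was called in the opposite direction under any alternative run. Calls numbered 9227 to 10959 when each replicate was left out, with 4620 to 5483 higher and 4607 to 5476 lower. At least 2-fold changes then numbered 1492 to 1633 higher and 1403 to 1446 lower. With a minimum of 50 counts, 982 genes were at least 2-fold higher. On log2(TPM + 1), limma called 3391 genes higher and 5863 lower, 458 at least 2-fold higher and 727 at least 2-fold lower. Without a filter these were 3287 and 5302, and 459 and 723. On log2(TPM + 0.1) they were 3421 higher and 5930 lower. The median of all genes moved to -0.09 and -0.13 on log2(TPM + 1) and log2(TPM + 0.1). Tested against a log2 change of 1, 1893 genes passed, 982 higher and 911 lower, a stricter question by construction. Of 78 gene lists, 42 had a median above 0, against 38 to 42 when each replicate was left out, and 20 in each of the 3 TPM settings. The 22 lists that changed sign on log2(TPM + 1) had medians within 0.14 of 0 on counts. Genes at the floor and higher in MCF10AT1 numbered 28, 47 with a floor of 10 counts, 48 with a minimum of 50 counts, and 28 to 32 when each replicate was left out. Those lower numbered 56, 71 with a floor of 10 counts, 71 with a minimum of 50 counts, and 57 to 58 when each replicate was left out. Where no cause is stated, the cause was not tested.

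The replicate numbers did not pair the libraries: same-numbered deviations correlated at 0.088, -0.057 and 0.180. With the replicate block, 10673 genes passed, 5417 higher and 5256 lower, and B2M passed with an adjusted p of 0.010. B2M also passed with DESeq2, its size factors, all 9 libraries, no filter, length-scaled counts and TPM. BTC, HES2 and NQO1 did not pass on scaled or length-scaled counts. On log2(TPM + 1) without a filter, DNMT1, EGFR, EPHA4, FOSL1, ITGB4, LAMA3, LAMB3, SLC2A1, SMTN and TPM2 did not pass either. CCNB1, NRAS, PTTG1, EGFR, FDPS and SPRY4 each lost the call when a library was left out. SNAI2 passed on the TPM scales.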
